A study of Mus musculus with 24 samples.

Results

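The mitochondrial ribosomal proteins are the nuclear-encoded proteins of the ribosome that works inside mitochondria. Their transcripts were taken as every row of the deposited expression table whose gene symbol is Mrpl or Mrps followed by a number, which gave 77 of 22009 named rows. Of these 77 transcripts, 47 have Mrpl symbols, given to proteins of the large subunit, and 30 have Mrps symbols, given to proteins of the small subunit. The split is by symbol only. A pseudogene row, Mrps36-ps1, is among them. Mrps36 carries a ribosomal name although its product is now described as an adaptor of the alpha-ketoglutarate dehydrogenase complex. All 77 were above 0 RPKM (reads scaled to transcript length and to the mapped reads of the library) in all 24 libraries, with values from 3.08 to 186 RPKM, and all 77 passed the filter on low values.

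RNA was sequenced from CD4 T cells of adult C57BL/6 WT mouse spleen. There were 2 libraries of resting, unstimulated cells and 18 libraries of cells activated with anti-CD3e and anti-CD28, 1 for each of 3 conditions at 4, 8, 12, 16, 20 and 24 h. In Th0 cultures nothing else was given. In Th1 cultures recombinant IL-12 was added together with anti-IL-4, and in Th2 cultures recombinant IL-4 was added together with antibodies to IL-12 and IFNG. The remaining 4 libraries follow a block of transcription: 16 h after stimulation, actinomycin was added for 0, 1, 2 or 4 h. The labels name no skewing condition for them. The cells were purified by negative selection from the pooled spleens of several mice, and nothing in the labels ties libraries to separate animals, so p-values measure the spread between libraries only. The labels describe purified CD4 cells and the methods name naive ones. The names of the resting libraries carry another number than those of the 18 cultures. The labels do not say what it marks, and it cannot be told apart from activation in any comparison with resting cells.

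Mitochondria keep a small genome that encodes core subunits of the respiratory chain, and these are made on a ribosome of their own. Its RNAs come from mitochondrial DNA, whereas all of its proteins are encoded in the nucleus, translated in the cytosol and imported. The mitochondrial ribosome holds more protein and less RNA than a bacterial one, and many of its proteins have no counterpart in bacteria. T cells that leave quiescence are known to enlarge their mitochondria and to raise respiration, and new respiratory complexes need subunits from both genomes.

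The transcripts come from genes scattered over 17 chromosomes, and the promoters of genes of this kind are known for sites of nuclear respiratory factor 1 (NRF1), of the ETS family, which includes GABP, and of YY1. RefSeq promoter windows on GRCm38, from 250 bases before to 50 after the annotated start, were at hand for 67 of the 77 genes, in 73 windows. The ETS motif CCGGAAG lay in 24 of the 73 windows (32.9%), against 8.86% of all 32851 windows and 19% of the windows of genes expressed at a mean of at least 1 RPKM in the time course. The NRF1 motif, GCGCA and GCGC with 1 base of any kind between them, lay in 13 (17.8%, against 4.6% and 10.8%), and the YY1 motif AAGATGGCG in 8 (11%, against 1.4% and 3.3%). The E-box CACGTG, which MYC can bind, lay in 7 (9.59%, against 7.15% and 10.2%), and the GC box GGGCGG in 39 (53.4%, against 35.7% and 62.7%). The counts are by window and not by gene. Mrpl2 has several windows that overlap almost fully, and its E-box and GC boxes are counted in each. Both strands were searched, and a match is a description of letters and not a site of binding. The windows below belong to 4 genes with large rises after activation (Mrps6, Mrps22, Mrpl12 and Mrpl45), to the 1 gene lower than at rest in all 3 cultures at 24 h (Mrpl24) and to a gene whose transcript fell fast after actinomycin (Mrpl32). Each is written 5′ to 3′ on the gene's strand, and capitals mark every match to the 5 motifs.
Mrps6 (chr16:92058086-92058385, plus strand): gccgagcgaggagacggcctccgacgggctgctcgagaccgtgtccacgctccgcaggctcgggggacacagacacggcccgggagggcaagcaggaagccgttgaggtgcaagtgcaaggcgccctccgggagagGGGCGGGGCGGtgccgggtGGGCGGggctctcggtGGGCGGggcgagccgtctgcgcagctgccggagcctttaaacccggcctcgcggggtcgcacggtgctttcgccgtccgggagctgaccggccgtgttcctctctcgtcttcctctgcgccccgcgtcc
Mrps22 (chr9:98601630-98601929, minus strand): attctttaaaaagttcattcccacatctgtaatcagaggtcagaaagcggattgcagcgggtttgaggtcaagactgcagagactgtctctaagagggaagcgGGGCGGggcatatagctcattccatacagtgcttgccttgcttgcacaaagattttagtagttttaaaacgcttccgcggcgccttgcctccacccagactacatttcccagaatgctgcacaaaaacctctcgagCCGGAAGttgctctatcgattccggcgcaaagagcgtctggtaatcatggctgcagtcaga
Mrpl12 (chr11:120484387-120484686, plus strand): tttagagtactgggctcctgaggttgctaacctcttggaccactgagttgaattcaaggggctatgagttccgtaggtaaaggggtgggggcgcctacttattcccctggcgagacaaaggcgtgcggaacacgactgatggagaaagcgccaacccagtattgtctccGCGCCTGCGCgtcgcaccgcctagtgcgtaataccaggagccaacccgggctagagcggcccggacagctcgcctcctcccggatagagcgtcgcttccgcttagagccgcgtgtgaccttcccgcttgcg
Mrpl45 (chr11:97315466-97315765, plus strand): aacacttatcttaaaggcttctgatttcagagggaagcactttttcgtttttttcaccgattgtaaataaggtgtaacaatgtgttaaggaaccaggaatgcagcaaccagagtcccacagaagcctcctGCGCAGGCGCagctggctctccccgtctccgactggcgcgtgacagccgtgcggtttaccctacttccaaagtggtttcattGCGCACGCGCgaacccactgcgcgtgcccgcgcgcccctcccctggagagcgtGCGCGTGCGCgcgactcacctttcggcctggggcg
Mrpl24 (chr3:87919294-87919593, plus strand): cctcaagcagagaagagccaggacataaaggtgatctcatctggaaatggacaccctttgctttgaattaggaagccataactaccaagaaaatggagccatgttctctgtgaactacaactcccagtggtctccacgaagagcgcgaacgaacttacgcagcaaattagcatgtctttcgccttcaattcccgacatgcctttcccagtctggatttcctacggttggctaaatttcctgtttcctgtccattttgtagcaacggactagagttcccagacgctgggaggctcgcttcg
Mrpl32 (chr13:14612988-14613287, minus strand): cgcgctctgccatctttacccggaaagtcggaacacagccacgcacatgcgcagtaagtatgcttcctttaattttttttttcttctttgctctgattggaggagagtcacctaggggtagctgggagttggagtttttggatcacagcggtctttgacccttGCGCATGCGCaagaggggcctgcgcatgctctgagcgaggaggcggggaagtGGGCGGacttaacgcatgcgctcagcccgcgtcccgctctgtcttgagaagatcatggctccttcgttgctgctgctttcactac
The Mrps6 window held 4 matches, all to the GC box, and the Mrps22 window held a GC box and an ETS motif. Mrpl12 had 1 NRF1 motif and Mrpl45 had 3. Mrpl24 had none of the 5 motifs, and Mrpl32 had an NRF1 motif and a GC box.

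Depth and cell makeup bear on all values. The depth recovered from the values lay between 17512385 and 33017133 mapped reads per library. For the 23 members whose values were whole multiples of 1 read, this put 38 to 2437 reads behind a value and a median counting error of 3.59%. The 6 CD4 T cell markers (Cd3d, Cd3e, Cd3g, Cd4, Cd28 and Lck) summed to 1706 and 1718 RPKM at rest and to between 1039 and 1215 RPKM in the 18 cultures. Among them, mean Cd28 was higher at 24 h (123 RPKM) than at rest (66.6 RPKM), and the means of the other 5 were lower. The 7 monocyte and macrophage markers summed to 521 and 541 RPKM at rest and to at most 6.52 RPKM at 24 h, and the 5 B cell markers to 62.2 and 72.3 RPKM at rest and to at most 18.2 RPKM at 24 h. Haemoglobin transcripts took 6.25% and 6.86% of the summed RPKM at rest, between 4.99% and 7.36% at 4 h and at most 0.0333% at 24 h. Each marker of these 3 lists other than C1qa, at 0 in 1 library, was above 0 in all libraries. The part of other cells in the changes after activation was not tested, except that each count was also made with the haemoglobin genes left out. In bulk samples, fewer cells of a type and less RNA per cell cannot be told apart.

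The first comparison asked how the transcripts changed between resting cells and each time point. In resting cells the 77 members had a median of 21.8 RPKM, with an 18.1-fold range between the highest and the lowest protein-coding member. Mrpl24, whose product lies near the exit of the peptide tunnel, was highest at rest with 96.0 and 89.9 RPKM. Mrps21, a small-subunit protein with a bacterial counterpart, had 60.2 and 60.8 RPKM and the large-subunit protein Mrpl52 had 53.8 and 61.0 RPKM. At 24 h the median was 46.4 RPKM and the range 16.3-fold. Over the 20 libraries of the time course, the highest means belonged to Mrpl12 (102 RPKM), Mrpl20 (98.4), Mrps6 (97.2), Mrpl24 (87.7) and Mrps21 (77.8). The lowest belonged to Mrps36-ps1 (5.8 RPKM), Mrpl57 (8.14), Mrpl35 (9.56), Mrpl1 (10.4) and Mrpl11 (11.0). RPKM is a level per transcript length, and the order of the levels depends on the length that was used. Of the 23 members whose steps gave that length, 6 matched an annotated transcript. Mrpl57 was divided by 2321 bases and Mrpl11 by 2882, although shorter transcripts of both are annotated. The order was largely kept, with a Spearman rho of 0.83 between levels at rest and at 24 h across the 77 members, which share libraries and are not independent.

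At 4 h, taken over the 3 cultures, the members were split between higher and lower. The median change was -0.01 on the log2 scale, against -0.04 over all 10897 genes tested, and 37 of 77 members were higher than at rest. The cultures were not alike in this. Without Th2 the median was -0.09 (all genes, -0.05) with 26 members higher. Without Th0 it was 0.02 (all genes, -0.07) with 41 higher, and without Th1 0.04 (all genes, -0.04) with 41. With limma, at an adjusted p under 0.05 and at least 2-fold, 1 member had risen and none had fallen, where 2.61% of all genes had risen and 7.97% had fallen. By adjusted p alone 4 rose and 4 fell (all genes, 11.5% and 20.2%). The member past both limits was Mrps6, a protein of the small-subunit platform, with 20.3 and 19.1 RPKM at rest and 29.0, 40.7 and 69.1 RPKM in Th0, Th1 and Th2 at 4 h. All 3 cultures were above both resting libraries, with Th2 highest, and the difference was 1.12 (SE 0.34, limma adjusted p = 0.0181). Without either resting library, or without the Th1 or the Th2 cultures, Mrps6 was no longer past both limits.

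The other transcripts that moved at 4 h did so by less than 2-fold. Mrpl43 (0.48, adjusted p = 0.0463 with limma) and Mrps25 (0.31, 0.0179), both found in mitochondrial ribosomes only, rose slightly, and so did Mrpl54 of the factor-binding stalk (0.48, 0.0254). Exonic bases of Mrps25 overlap those of Nr2c2 on the opposite strand over 69.8%, and those of Mrpl43 overlap Twnk over 33.4%, so these values are uncertain. Mrps24, Mrpl50, Mrpl44 and Mrps22 were higher by 0.45, 0.41, 0.31 and 0.29 without passing the test. The falls were larger. Mrps35, a protein of the small-subunit head, went from 23.7 and 26.6 RPKM to 13.9, 10.9 and 18.3 RPKM, a difference of -0.81 (SE 0.19, limma adjusted p = 0.00302). Mrpl42, specific to mitochondria, went from 40.3 and 33.1 RPKM to 18.6, 18.7 and 28.4 RPKM (-0.75, SE 0.24, limma adjusted p = 0.0243). In both, all 3 cultures were below both resting libraries, and Th2 was the highest of the cultures. Mrps26 (log2 difference -0.60, limma adjusted p = 0.0172) and Mrpl22, which lines the peptide tunnel (-0.51, 0.0469), also fell. All 3 cultures were above both resting libraries for 10 members and below them for 15, where the shares over all genes were 23.9% and 33.9%.

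From 8 h on, every member that passed the test was higher than at rest. The median change from rest was 0.46 at 8 h, 0.79 at 12 h, 0.77 at 16 h, 0.96 at 20 h and 0.97 at 24 h, while the median over all genes stayed between -0.07 and -0.01. The members past both limits numbered 7 at 8 h (all genes, 6.42% higher), 22 at 12 h (10.7%), 31 at 16 h (11.2%), 36 at 20 h (12.9%) and 36 at 24 h (12.7%), and no member passed downwards, where 12.5%, 16.4%, 14.5%, 16.1% and 17.4% of all genes did. By adjusted p alone the numbers were 38 (22.5% of all genes), 58 (28.9%), 65 (30.3%), 73 (32.1%) and 73 (31.6%), again with none downwards (all genes, 27.9%, 32.5%, 29.4%, 31.7% and 33.6%). The 7 at 8 h were Mrps6 (2.28), Mrpl12 (1.39), Mrps18b (1.21), Mrpl50 (1.12), Mrpl20 (1.10), Mrps22 (1.08) and Mrpl15 (1.03). The 8 h count depended on the cultures, with 3 members without Th2 and 13 without Th0.

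From 4 to 8 h the median step was 0.47 (all genes, -0.05). There, 41 members rose by adjusted p alone with limma (15.8% of all genes) and 4 at 2-fold (2.95%), a number that became 0 without the Th1 cultures, 7 without the Th0 cultures and 0 in a fit of the libraries of these times alone. From 8 to 12 h the median step was 0.34, and without the Th1 cultures the steps were 0.36 from 4 to 8 h and 0.39 from 8 to 12 h, in the other order. With all libraries, the step from 8 to 12 h had 1 member past adjusted p alone (0.34% of all genes). This was Mrpl45 (0.68, limma adjusted p = 0.026), named after its value was seen. Later steps had medians of 0.10, 0.16 and -0.0038, and limma called 0 members higher by adjusted p alone (all genes, 0.0734%, 0.505% and 0.697%), with 4, 5 and 2 at an unadjusted p under 0.05. All 3 cultures were above both resting libraries from 4 h onwards for 10 members, from 8 h for 33, from 12 h for 21, from 16 h for 9 and from 20 h for 3. This count was not made over all genes, whose share above rest at a single time point ran from 23.9% at 4 h to 41.0% at 20 h.

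The libraries themselves show the spread of the rise over the group. All 3 cultures lay above both resting libraries for 43 members at 8 h (all genes, 29.2%), 64 at 12 h (37.3%), 73 at 16 h (39.8%), 76 at 20 h (41.0%) and 76 at 24 h (38.7%). They lay below for 2 members at 8 h (37.0% of all genes), 0 at 12 h (43.0%), 0 at 16 h (40.8%), 1 at 20 h (41.9%) and 1 at 24 h (41.9%). The member below at 24 h was Mrpl24. The summed RPKM of the 77 members made up 0.306% and 0.309% of all RPKM at rest, and 0.605%, 0.625% and 0.642% in Th0, Th1 and Th2 at 24 h.

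**Figure D1:**
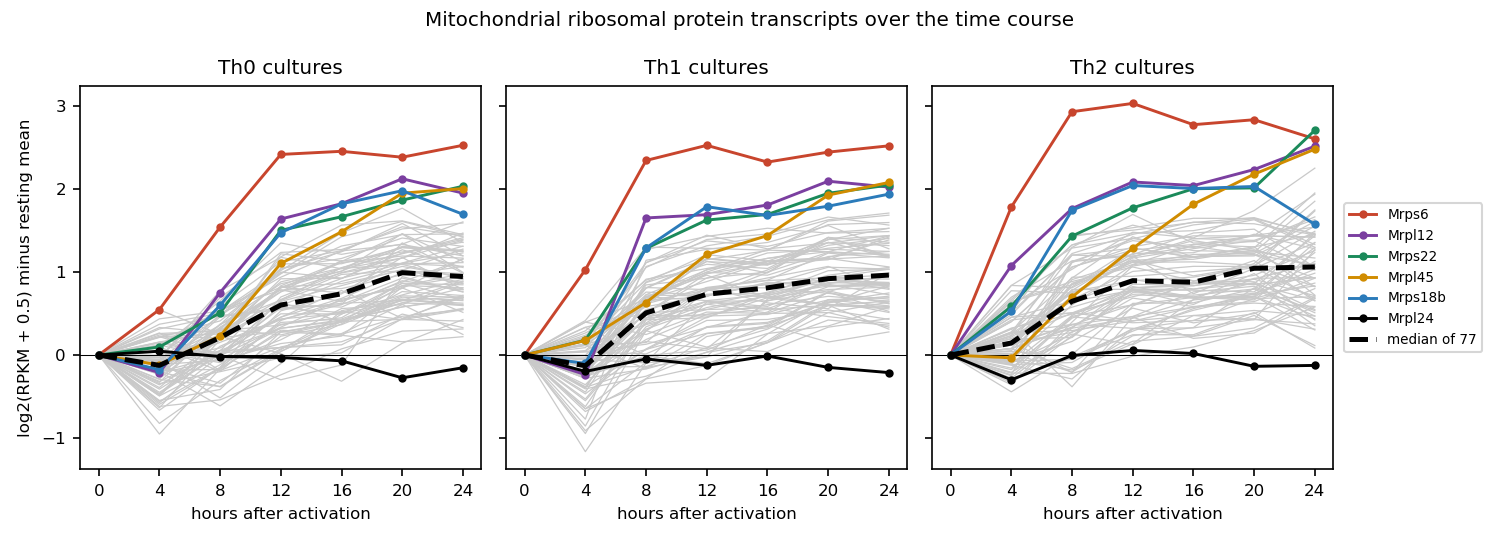
Change of each of the 77 transcripts from the resting mean (log2 of RPKM + 0.5, vertical axis) against hours after activation, in Th0, Th1 and Th2 cultures with 1 library per point. Grey lines are single transcripts, the dashed line is their median, and 6 named transcripts are coloured. The medians lie above 0 from 8 h on in every culture, and that of Th2 already does at 4 h. Mrps6 stays on top in every culture until 20 h and Mrpl24 stays near 0.

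The largest rises at 24 h were those of Mrps6 and Mrps22. Mrps6 had 20.3 and 19.1 RPKM at rest and 116, 116 and 123 RPKM in Th0, Th1 and Th2, a log2 difference of 2.55 (SE 0.34, limma adjusted p = 8.08e-06). Mrps22, specific to the mitochondrial small subunit, went from 9.76 and 8.61 RPKM to 39.2, 39.6 and 62.9 RPKM (2.27, SE 0.24, limma adjusted p = 8.38e-07). The Th2 library was well above the other cultures for Mrps22 but not for Mrps6. Mrps6 lies at chr16:92058270-92112227 of GRCm38 on the plus strand. Of its exonic bases 19.9% overlap the exons of Gm49711 and 10.4% those of Slc5a3 on the same strand, so its reads could be shared with them in counting. Mrps22 lies at chr9:98588730-98601660 on the minus strand and shares no 50-base stretch with transcripts of other genes.

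Mrpl45, which sits at the tunnel exit and anchors the ribosome to the inner membrane, and Mrpl12, the protein that recruits translation factors to the stalk, came next. Mrpl45 (chr11:97315716-97329920, plus strand) rose from 9.84 and 12.3 RPKM to 45.8, 48.3 and 63.9 RPKM (2.19, SE 0.17, limma adjusted p = 2.29e-08). Mrpl12 (chr11:120484613-120489065, plus strand) rose from 31.1 and 32.9 RPKM to 125, 132 and 186 RPKM (2.17, SE 0.33, limma adjusted p = 3.20e-05). Their time courses differed: at 8 h Mrpl12 already stood at 54.3, 102 and 110.1 RPKM, whereas Mrpl45 had 13.0, 17.4 and 18.2 RPKM and went on rising to 24 h in all 3 conditions. Mrpl47, at the tunnel exit, rose by 1.77, Mrps18b, one of 3 paralogs of a single bacterial protein, by 1.74, Mrpl20, which binds ribosomal RNA during assembly, by 1.67, and Mrpl50 by 1.59. The limma adjusted p-values of these were 4.49e-06, 2.88e-05, 2.56e-06 and 6.63e-06. For each of these transcripts the 3 cultures at 24 h lay above both resting libraries.

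At the other end stood Mrpl24, with 96.0 and 89.9 RPKM at rest and 83.5, 80.2 and 85.2 RPKM at 24 h. Over the 18 cultures its values ran from 75.4 to 96.6 RPKM with a median of 86.9, a 1.28-fold range that was the narrowest of the 77. Its difference at 24 h of -0.16 (SE 0.10, limma adjusted p = 0.166) did not pass the test, although it did with the haemoglobin genes left out (-0.26, limma adjusted p = 0.0301) and under quantile normalization (-0.40, adjusted p = 0.00308), within a range of 0.00308 to 0.858 over all alternatives. The gene lies at chr3:87919506-87923672 on the plus strand, and 26.3% of its exonic bases overlap exons of Rrnad1 on the opposite strand. Whether the counting used strand is not given in the sources used here. Mrps26 (0.25, limma adjusted p = 0.229) and Mrpl57 (0.35, 0.157) did not pass either, while Mrpl10, the base of the stalk, rose by 0.36 (0.0277).

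**Figure D2:**
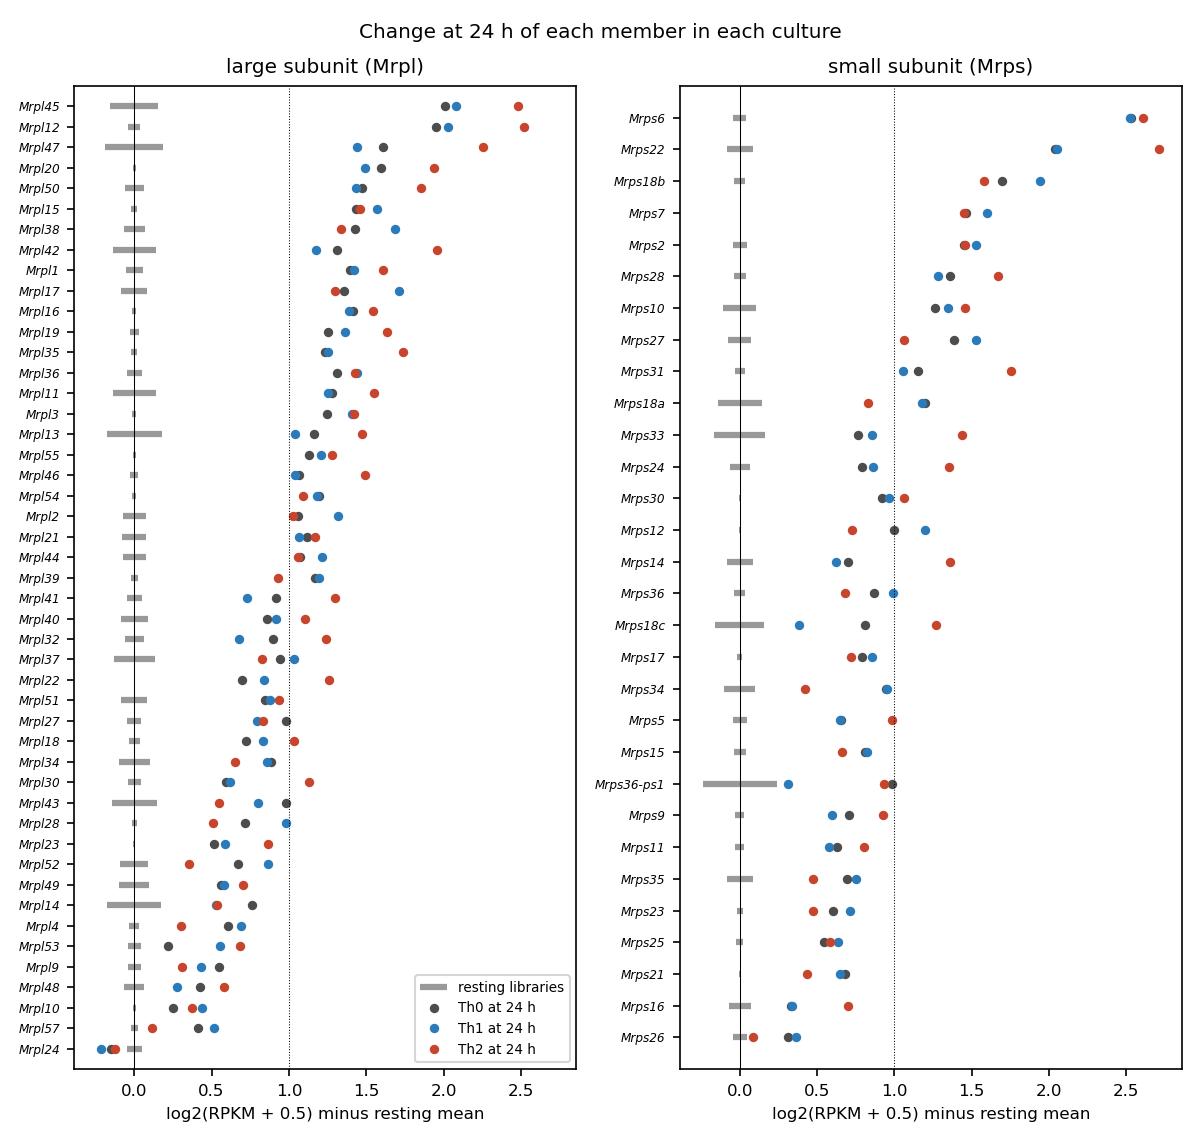
Change at 24 h of each large-subunit (left) and small-subunit (right) transcript from the resting mean (log2 of RPKM + 0.5, horizontal axis), ordered by the mean of the cultures, with Th0, Th1 and Th2 as separate points. The grey bar spans the 2 resting libraries and the dotted line marks 2-fold. The points of 76 transcripts lie to the right of both resting libraries, and those of Mrpl24 lie to the left.

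Both subunits took part in the rise. The median at 24 h was 1.10 for the 47 large-subunit transcripts, with 24 past both limits, and 0.87 for the 30 of the small subunit, with 12, when subunits are assigned by symbol. The 47 whose proteins have a bacterial counterpart had a median of 1.00 with 24 past both limits, and the 30 without had 0.95 with 12. Neither difference was tested. Over all genes, 12.7% rose past both limits at 24 h and 31.6% by adjusted p alone. The 5 stalk transcripts ran from Mrpl10 (0.36) and Mrpl53 (0.49) through Mrpl54 (1.16) and Mrpl11 (1.36) to Mrpl12 (2.17). Of Mrpl53's exonic bases, 88% also belong to an overlapping gene model on the same strand, so its value is uncertain. The 6 of the central protuberance ran from 0.43 for Mrpl48 to 1.48 for Mrpl38, and all 6 rose by adjusted p alone. Of the 8 at the peptide exit, 7 rose by adjusted p alone, and Mrpl24 was the other. All 7 transcripts of the small-subunit head rose, from Mrps35 (0.64) to Mrps7 (1.5).

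The 3 S18 paralogs descend from a single bacterial protein and sit at different places, Mrps18a in the large subunit despite its name. All 3 rose by adjusted p alone (all genes, 31.6%). Mrps18b went from 27.9 and 26.5 RPKM to 89.4, 106 and 82.1 RPKM, Mrps18a from 18.9 and 23.2 RPKM to 48.7, 48.2 and 37.5 RPKM and Mrps18c from 44.8 and 35.9 RPKM to 70.7, 52.4 and 97.6 RPKM. Their log2 differences were 1.74, 1.07 and 0.82. At rest Mrps18c was the highest of the paralogs, and at 24 h Mrps18b was higher than Mrps18c in Th0 and Th1 but lower in Th2. Of the exonic bases of Mrps18b, 30.5% overlap an antisense transcript, and 19.2% of the 50-base windows of Mrps18c recur in other genes. The 50-base windows of 13 members recurred elsewhere in more than 10% of cases, and 32 members shared none.

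The lists of the rest of the machinery for mitochondrial gene expression are read against the 31.6% of all genes that rose and the 33.6% that fell at 24 h by adjusted p alone. Of 6 mitoribosomal proteins listed under other symbols, 4 rose by adjusted p alone and 3 at 2-fold, with a median of 0.93. Chchd1 rose by 1.37 and Gadd45gip1 by 1.20, whereas Dap3, a GTP-binding protein of the small subunit, had 0.22 and did not pass the test (limma adjusted p = 0.0619). Of 15 translation factors 8 rose, led by the elongation factor Tufm (1.61, 5.00e-06), its exchange factor Tsfm (1.35) and the RNA-stabilising protein Slirp (1.28). Of 23 assembly factors 16 rose, with Rnmtl1 (an RNA methyltransferase, 1.70) and Wbscr16 (1.25) first. Of 17 tRNA synthetases 7 rose, led by Yars2 (1.71) and Pars2 (1.30), and Ears2 fell (-0.43).

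A further list joins genes of mitochondrial DNA upkeep and transcription with regulators that act in the nucleus, such as Myc, Ppargc1b, Esrra and Nrf1. Among its 19 tested genes, 11 rose and 3 fell by adjusted p alone at 24 h. Myc, the growth regulator, had the largest rise (2.58, limma adjusted p = 4.29e-05), followed by the elongation factor Tefm (1.29) and the coactivator Pprc1 (1.26). The coactivator Ppargc1b (-0.76), the nuclear receptor Esrra (-0.58) and Nrf1 (-0.44) fell. Among the other factors named by the promoter motifs, Gabpa had -0.24 (0.077), Gabpb1 0.38 (0.0111) and Yy1 0.07 (0.612). These are transcript levels and say nothing of the factors' activity.

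Nuclear genes for oxidative phosphorylation subunits, the complexes that mitochondrial translation serves, had a median of 0.76 at 24 h, with 60 of 75 up and 1 down by adjusted p alone (all genes, 31.6% and 33.6%) and 23 up at 2-fold (all genes, 12.7%). Cytosolic ribosomal protein genes had a median of 0.19, with 27 of 76 up, a share near that of all genes, and 4 down and none past 2-fold. The 13 mRNAs made from mitochondrial DNA had a median of -0.19, with 1 up and 1 down. Differences between these lists were not tested.

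**Figure D3:**
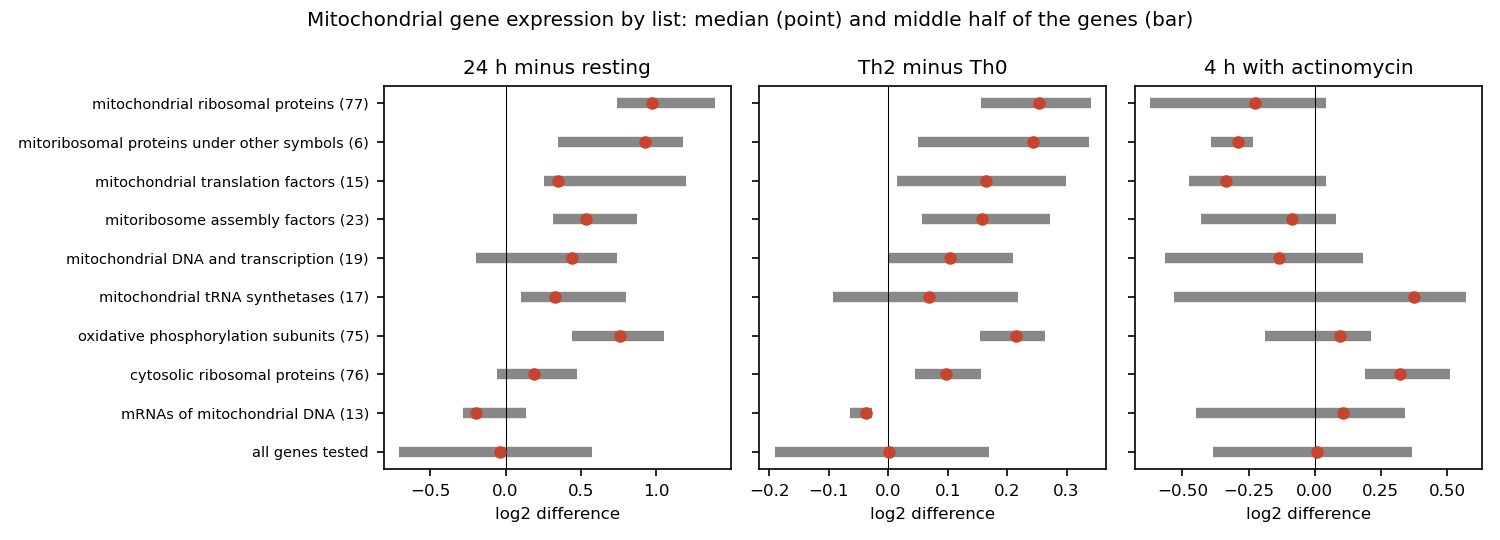
Median (point) and interquartile range (bar) of the log2 differences in each gene list, with the number of genes tested in brackets, for 24 h minus resting, Th2 minus Th0 and the change over 4 h with actinomycin. Mitochondrial ribosomal proteins have the highest median at 24 h (0.97) and between Th2 and Th0 (0.25), and cytosolic ribosomal proteins and all genes lie nearer to 0.

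The next comparison asked whether the skewing conditions differed, in one fit of the 18 cultures that allowed each time point its own level. In Th2 the transcripts were slightly higher than in Th0: 75 of 77 had a positive difference, with a median of 0.25 (all 10737 genes tested, 0.00). No member differed 2-fold (all genes, 0.186% higher and 1.83% lower), but 35 of 77 were higher in Th2 by limma's adjusted p alone, against 12.9% of all genes, and 0 were lower (16.7%). At an unadjusted p under 0.05 there were 45, a count given without the share over all genes. In 26 members Th2 was above Th0 at all 6 time points, against 9.04% of all genes, and in none below throughout (14.6%). The count of 35 fell to 15 with 12 to 24 h only, to 20 without 12 h, to 23 without 8 h and to 19 in a fit of Th2 and Th0 alone, and was 43 without the Th2 library at 24 h. In these fits the median of the members lay between 0.18 and 0.26 and that of all genes between -0.01 and 0.01. The shares of all genes by adjusted p alone are not given for them. Each time point is 1 library per condition.

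Mrps6 differed most. From 4 to 24 h it had 29.0, 58.4, 108, 110.4, 105 and 116 RPKM in Th0 and 69.1, 154, 165, 138, 144 and 123 RPKM in Th2. Th2 was above Th0 at every time point and least so at 24 h, and the difference was 0.68 (SE 0.14, limma adjusted p = 0.00196). Mrpl12 had 27.6, 54.3, 101, 115, 141 and 125 RPKM in Th0 and 68.1, 110.1, 138, 134, 153 and 186 RPKM in Th2, with Th2 again above throughout (0.61, SE 0.15, limma adjusted p = 0.00725). The other large differences were those of Mrpl42 (0.49, 0.000968), Mrps28 (0.49, 0.0185), Mrps22 (0.47, 0.00339) and Mrpl16, a protein near the catalytic centre (0.45, 0.00942), each with its limma adjusted p and each higher in Th2 at all 6 time points. By subunit, 23 of 47 Mrpl and 12 of 30 Mrps transcripts were higher in Th2 by adjusted p alone (all genes, 12.9%).

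In the other lists the share higher in Th2 than in Th0 by limma's adjusted p alone ran from below to above the 12.9% over all genes (lower, 16.7%). Genes higher in Th2 were 3 of 6 mitoribosomal proteins under other symbols (median 0.24), 3 of 15 translation factors (0.16), 5 of 23 assembly factors (0.16) and 3 of 17 tRNA synthetases (0.07). Of 19 genes of mitochondrial DNA upkeep and transcription, a list that includes nuclear regulators such as Myc, 2 were higher and 1 was lower (0.10). Among oxidative phosphorylation subunits 25 of 75 were higher (median 0.22), among cytosolic ribosomal proteins 5 of 76 (0.10) and among the mRNAs of mitochondrial DNA 0 of 13, with 0 at an unadjusted p under 0.05 (-0.04).

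The median difference was largest at 8 h. The median of Th2 minus Th0 over the 77 members was 0.32 at 4 h, 0.52 at 8 h, 0.33 at 12 h, 0.20 at 16 h, 0.04 at 20 h and 0.13 at 24 h, where the median of all genes lay between -0.07 and 0.04. At 8 h 70 members were higher in Th2 (all genes, 50.3%) and 41 by at least 0.5 on the log2 scale (all genes, 21.2%). At 20 h 51 were higher (all genes, 49.6%) and 1 by that much (3.97%). These are single libraries, and whether the difference changed with time was not tested. Mrps18b shows the early gap, with 41.5, 67.3 and 92.5 RPKM in Th0, Th1 and Th2 at 8 h and 97.5, 88.5 and 111 RPKM at 16 h. Haemoglobin transcripts took 4.66%, 3.15% and 2.51% of the summed RPKM in Th0, Th1 and Th2 at 8 h. With the haemoglobin genes left out, 35 members were again higher in Th2 than in Th0 by adjusted p alone. That fit only drops these genes and rescales the others. The part of red cells or other cells in the difference between conditions was not tested.

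**Figure D4:**
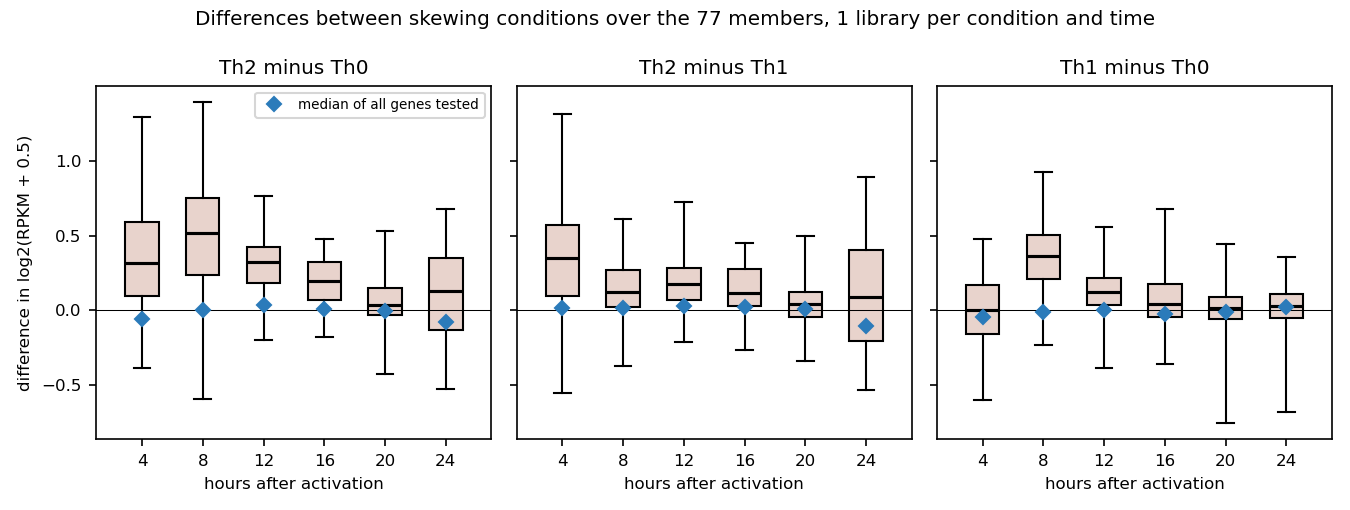
Differences between conditions in log2(RPKM + 0.5) over the 77 transcripts at each time point, each from 1 library per condition. Boxes span the interquartile range with the median, whiskers reach the lowest and highest transcript, and diamonds mark the median of all genes tested. The boxes of Th2 minus Th0 lie above 0 from 4 to 16 h, and the box of Th1 minus Th0 does so at 8 and 12 h.

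Against Th1, the Th2 transcripts were higher in 72 of 77 with a median of 0.16 (all genes, 0.02). This comparison uses the same Th2 libraries as the one with Th0. None differed 2-fold (all genes, 0.568% higher and 1.39% lower), with 21 at an unadjusted p under 0.05. By limma's adjusted p alone 5 were higher and 0 lower (all genes, 3.49% and 8.71%). They were Mrps6 (0.46, adjusted p = 0.0348), Mrpl42 (0.35, 0.0173), Mrpl22 (0.29, 0.00474), Mrpl18 of the central protuberance (0.26, 0.0238) and Mrpl49 (0.24, 0.0211). With 1 time point left out the count ran from 1 (without 4 h or without 16 h) to 10 (without 8 h), with 2 without 12 h and 3 without 20 h, and it was 9 without the Th2 library at 24 h. In 13 members Th2 was above Th1 at all 6 time points (all genes, 6.99%) and in none below (10.8%). The median difference was 0.35 at 4 h and between 0.04 and 0.18 from 8 h on.

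Th1 and Th0 had the smallest median difference. The median of Th1 minus Th0 was 0.09, 67 of 77 were higher in Th1, and limma called 0 members by either rule, with 7 at an unadjusted p under 0.05 (all genes by adjusted p alone, 0.522% higher and 1.75% lower, and at 2-fold 0.177% and 0.317%). The largest differences were those of Mrps27 (0.29, limma adjusted p = 0.307), Mrpl11 (0.28, 0.12) and Mrpl15 (0.25, 0.193). Th1 was above Th0 at all 6 time points in 5 members (all genes, 5.09%) and below in none (7.39%). At 8 h alone the median was 0.36, with 68 of 77 higher in Th1 (all genes, 49.3%), and at 24 h it was 0.03.

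At 24 h some members differed in the Th2 library from both other cultures. The SD over members of the log2 difference between Th2 and Th0 was 0.35 at 4 h, 0.38 at 8 h, 0.17 at 12 h, 0.15 at 16 h, 0.16 at 20 h and 0.31 at 24 h, so it was wide early, narrow from 12 to 20 h and wider again at 24 h. Over all genes the SD was 0.48, 0.68, 0.43, 0.39, 0.39 and 0.41 at these times, wider than over the members at each. Between Th1 and Th0 the SD at 24 h was 0.16 over members and 0.24 over all genes. Mrpl47 (23.5, 20.9 and 37.1 RPKM in Th0, Th1 and Th2), Mrpl42 (91.5, 82.9 and 143) and Mrps14 (43.2, 41.0 and 68.5) were higher there, and Mrps34 (38.0, 38.2 and 26.3), Mrpl52 (91.6, 105 and 73.3) and Mrps27 (23.1, 25.5 and 18.3) were lower. Of the exonic bases of Mrps34, 63.4% overlap those of Mapk8ip3 on the opposite strand and 37.0% those of Nme3 on the same strand. The median of the 13 mRNAs from mitochondrial DNA was 3580 RPKM in this library and 2498 and 2384 RPKM in Th0 and Th1. Without it, 35 members were past both limits at 24 h against rest, where 36 were with it.

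The last comparison followed the transcripts after transcription was blocked. RPKM is relative to all mapped reads, so a fall means that a transcript lost ground to the others. The slope over 4 h had a median of -0.23 on the log2 scale (all 10571 genes tested, 0.01), and 23 of 77 members had a positive slope. With limma 7 fell at least 2-fold over the 4 h, where 5.58% of all genes fell and 3.97% rose, and 20 fell by adjusted p alone (12.0%), while none rose (8.95%), and 28 had an unadjusted p under 0.05. The fit rests on 4 libraries with 2 residual degrees of freedom and on the spread shared across genes. Without the 4 h library 1 member was called and the median was 0.01, and the median of all genes was then -0.15. The member was Mrpl44.

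Mrps31 of the small-subunit head had 21.8, 15.4, 14.5 and 6.60 RPKM after 0, 1, 2 and 4 h, a change over 4 h of -1.59 (SE 0.26, limma adjusted p = 6.20e-07). Mrpl32, which a mitochondrial protease must trim before assembly, had 51.2, 42.3, 32.4 and 17.0 RPKM (-1.59, SE 0.23, limma adjusted p = 1.57e-08), from 1011, 683, 467 and 236 reads. Both fell at each step, Mrpl32 by more than its counting error each time. Mrpl44 had 25.3, 22.7, 13.0 and 11.6 RPKM (-1.18, SE 0.26, limma adjusted p = 0.000161), Mrpl16 38.8, 37.7, 28.8 and 17.6 RPKM (-1.18, SE 0.24, limma adjusted p = 3.65e-05) and Mrpl50 33.3, 28.2, 23.8 and 14.8 RPKM (-1.15, SE 0.24, limma adjusted p = 9.62e-05). Mrpl1 (-1.09) and Mrps22 (-1.05) were also past both limits. At the other end Mrps15 (0.48, limma adjusted p = 0.111), Mrpl37 (0.48, 0.114) and Mrpl24 (0.36, 0.241) had positive slopes that did not pass the test. Mrpl24 had 83.9, 88.1, 100 and 107 RPKM, with the lowest value at 0 h and the highest at 4 h.

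By place in the ribosome the slopes differed in sign and size, without a test of the difference. The 8 transcripts of the peptide exit had a median of -0.63 with 4 falling by adjusted p alone, the 7 of the small-subunit head -0.36 with 1, the 6 of the central protuberance -0.15 with 1 and the 5 of the stalk 0.11 with 0. By the same rule 12.0% of all genes fell. The 77 slopes ran from -1.59 to 0.48. Cytosolic ribosomal protein transcripts had a median of 0.32, with 74 of 76 positive, and oxidative phosphorylation subunits 0.09. Across the 77 members, the change at 24 h and the slope after actinomycin had a Spearman rho of -0.44, a description over genes of shared libraries.

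**Figure D5:**
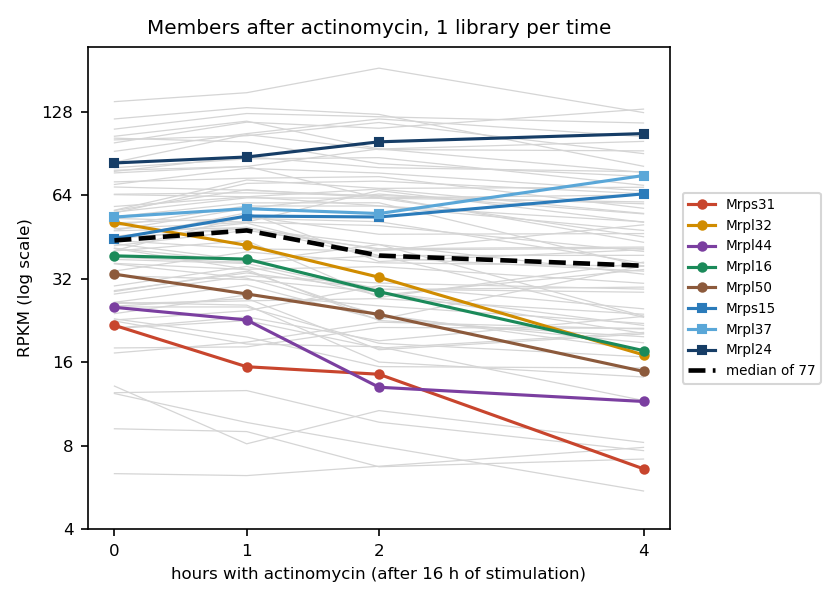
RPKM (vertical axis, log scale) of the 77 transcripts at 0, 1, 2 and 4 h with actinomycin, 1 library per time. Circles mark the 5 steepest falls, squares the 3 steepest rises and the dashed line the median of the 77. Mrpl32 falls from 51.2 to 17.0 RPKM, while Mrpl24 ends at 107 RPKM.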

How the data were processed

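The deposited table holds RPKM values that the authors computed per gene for 24 libraries. The submitters' processing notes name BWA and GRCm38, and versions, the counter and its use of strand are not given in the sources used here. Relative depth was recovered from the commonest ratio of low values between libraries. Absolute depth came from the steps of genes with few reads and 1 annotated transcript. Of 1096 such genes, 66.6% gave the same depth within 0.1%. Whole steps were found for 23 of 77 members, too few for a count test.

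Values were tested as log2(RPKM + 0.5) with limma 3.58.1 (R 4.3.3, intensity trend, Benjamini-Hochberg adjustment over all genes tested) where the mean reached 1 RPKM. A fold change is on that scale and understates changes of low genes. Time points were compared with the resting libraries over the 20 libraries of the time course with the 3 cultures of a time as its replicates. Conditions were compared among the 18 cultures in a model that also held the time points. The 4 actinomycin libraries were fitted as a slope on hours. A call needed an adjusted p under 0.05 and 2-fold, and the count by adjusted p alone is given beside it. Counts at an unadjusted p under 0.05 are descriptions, given without the share over all genes.

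In simulated data, 97 of 100 genes changed by 2 on the log2 scale were found at 24 h, 100 between Th2 and Th0, and 63 after actinomycin. At a change of 1.5 the numbers were 89, 99 and 31. Smaller changes, such as all those of the members between conditions, were not simulated. The members, gene lists and rules were chosen with earlier results of these data known. The mRNAs of mitochondrial DNA were added as a list after seeing the table. Full statistics went to the 8 largest rises and 4 largest falls or smallest rises at 4 and 24 h, up to 6 differences between conditions (the largest 3 where none passed), 5 falls and 3 rises after actinomycin, and the 5 highest and lowest levels. Other genes named outside the structural groups were chosen after their values were seen. Positions and overlaps come from GENCODE vM21 on GRCm38 and promoters from RefSeq. Alternatives were other pseudocounts, filters, scalings, sample subsets and leaving out libraries.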

Additional observations from a re-analysis of the deposited data

How the results depend on the processing

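No named value changed direction under any alternative tried. Of 764 alternative values of 46 named results, 679 kept their side of the threshold, 71 lost it and 14 gained it. By adjusted p alone, without the 2-fold limit, 8 members passed at 4 h, 38 at 8 h, 58 at 12 h, 65 at 16 h, 73 at 20 h, 73 at 24 h, 41 from 4 to 8 h, 1 from 8 to 12 h, 35 between Th2 and Th0, 5 between Th2 and Th1 and 20 after actinomycin. Quantile normalization gave 11 members at 8 h, and a fit of only the 4 and 8 h libraries gave 0 from 4 to 8 h. Between Th2 and Th0, adjusted p alone passed 15 members with 12 to 24 h only and 19 with only those conditions. Leaving out 1 library, culture series or time point gave 0 to 1 members at 4 h, 3 to 13 at 8 h, 19 to 30 at 12 h, 29 to 33 at 16 h, 36 to 41 at 20 h, 35 to 40 at 24 h and 0 to 7 from 4 to 8 h. Adjusted p alone then passed 20 to 43 between Th2 and Th0, 1 to 10 between Th2 and Th1 and 0 to 1 between Th1 and Th0, and 1 to 8 were called after actinomycin. The fit without the Th2 library at 24 h was chosen after seeing the data. Against resting cells, quantile normalization moved the median of all genes up by 0.11 to 0.17 and median-of-ratios scaling by 0.071 to 0.14. In the other comparisons both moved it by less than 0.1. Median-of-ratios scaling gave 47 members at 24 h, with a median of 1.11 against 0.10 over all genes. With haemoglobin genes left out, 33 members were called at 24 h with a median of 0.88, against -0.13 over all genes. The share of all genes called is not given for the alternatives, so these counts lack their background. Depth limits the members with the fewest reads, where counting error reached 16.2%.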
